A study of Danio rerio with 6 samples.

Results

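Interferon-induced antiviral effector genes encode the proteins that carry out the cell's defence against viruses once interferon has been sensed. Here 10 such zebrafish genes were followed: isg15, mxa, mxb, mxc, rsad2, ifit8, ifi44g, cmpk2, parp9 and samhd1. They were matched by symbol, without regard to capitals, to the 23678 Ensembl genes of the deposited matrix. Of the 10, 9 were found, and ifi44g, for which the name table holds no Ensembl identifier, was not analysed here. The members were chosen by their values in the same 6 libraries, since the depth of their decrease in the mutant, or its lack, was already known. Their values in this contrast are therefore given as a description and carry no test.

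Homozygous carriers of C246X, a chrna3 allele made with CRISPR/Cas9 whose name denotes a premature stop codon, gave 3 libraries of the whole adult brain. Wild-type (WT) adults gave another 3. Polyadenylated RNA was sequenced from all 6. Neuronal nicotinic acetylcholine receptors contain the alpha3 subunit that chrna3 encodes, and the series was set up around the alcohol response. The labels give 1 allele, no age beyond adult, no sex and no health status, and do not say whether the fish were siblings or whether a library came from 1 brain or a pool. All p-values below therefore measure only the spread between these libraries, which may be technical.

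In fish, as in mammals, virus-induced interferons bind receptors on the cell surface and activate STAT and IRF transcription factors. These switch on a shared set of genes, the interferon-stimulated genes, whose products block viral entry, copying or translation. In brain, microglia, neurons and other cells can all express such genes. A whole-brain library cannot tell fewer cells of a type from less RNA per cell.

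The values are scaled reads per gene, that is, estimated reads divided by 1 factor per library. Their sums were 26200203 to 26794838 in the C246X libraries and 25655952 to 26545054 in the WT libraries. The chrna3 transcript had 59.8, 40.7 and 57.4 scaled reads in the C246X libraries, against 102, 28.1 and 55.1 in the WT libraries. It overlapped between genotypes, so the transcript level does not check the genotype labels. Neuron markers were abundant in both genotypes, with a summed level of 270598 to 282458 over 8 genes in C246X and 253937 to 268450 in WT. Among all 23104 genes tested with limma on log2(value + 1), 11.4% were lower and 11.1% higher in C246X brains at a Benjamini-Hochberg adjusted p under 0.05.

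Most of the antiviral effectors were far lower in C246X brains. In 7 of the 9 measured genes every C246X library lay below every WT library, a pattern shown by 20.7% of all tested genes. The same 7 had a fold change of −2 or below on the log2 scale, a size reached by 2.99% of tested genes. The other 2, parp9 and samhd1, did not share the decrease. All 9 passed the minimum mean of 1 used for testing, and each also had a mean above 1 in the C246X libraries alone.

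**Figure D1:**
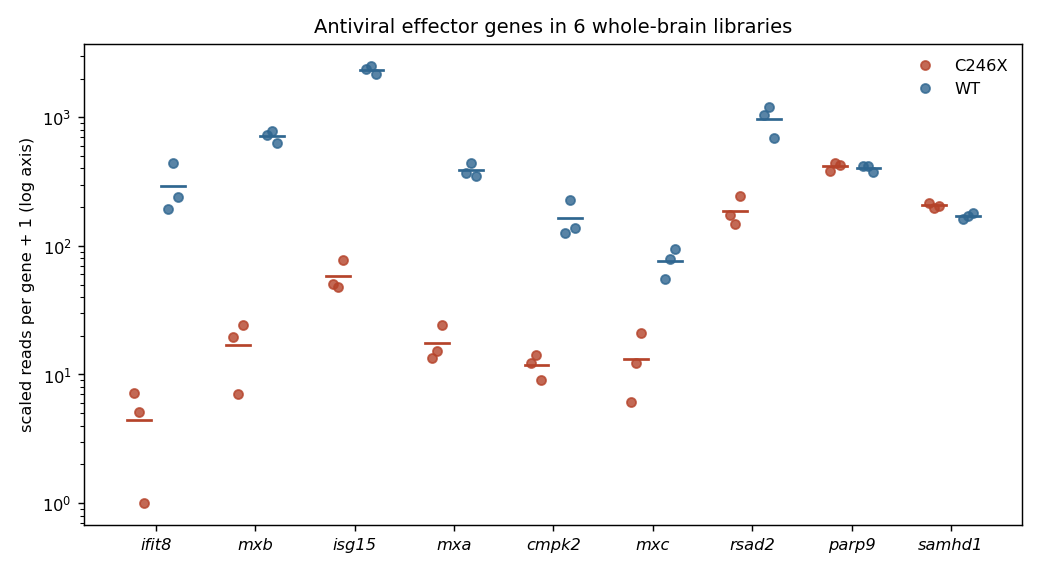
Scaled reads per gene plus 1 (log axis) for the 9 measured antiviral effector genes, with 1 point per library, C246X left of WT and a line at the mean of each genotype. The genotypes are apart for all genes except parp9, where they overlap, and samhd1 is the only one with every C246X library above every WT library.

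The gene isg15 encodes a ubiquitin-like protein that is joined to other proteins during the antiviral response. It had 49.5, 46.9 and 76.6 scaled reads in the C246X libraries, against 2356, 2511 and 2172 in the WT libraries. The C246X mean was 57.6 ± 16.4 and the WT mean 2346 ± 169.6 (SD, n = 3 each), so that C246X brains held 2.46% of the WT level. The fold change was −5.36 on the log2(value + 1) scale, with a 95% interval of −5.77 to −4.95. Among the 7 lower members it had the narrowest interval.

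Around isg15, 3 genes for attaching or removing its protein were lower too, though by much less. These 3 were picked from the list of other interferon-induced genes after their values were seen. The activating enzyme gene uba7 averaged 43.8 ± 3.96 in C246X and 128 ± 14.8 in WT (SD, n = 3 each; log2 fold change −1.52, limma adjusted p = 0.00103). The gene usp18, whose protease takes the ISG15 protein off its targets in mammals, had 7.22, 17.3 and 25.2 in C246X and 57.8, 62.3 and 47.7 in WT (log2 fold change −1.84, limma adjusted p = 0.0181). The ubiquitin ligase gene trim25 averaged 1237 ± 103 in C246X and 2503 ± 232 in WT (log2 fold change −1.02, limma adjusted p = 0.000239). Within a library, the log2 level of isg15 exceeded that of uba7 by 0.03 to 0.94 in C246X brains and by 3.89 to 4.38 in WT brains, a difference of −3.83 between the genotypes with no overlap. Against usp18 the difference was −3.52.

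The Mx genes encode dynamin-like GTPases that trap viral components. The member mxb had 18.6, 6.11 and 23.2 scaled reads in the C246X libraries, against 721, 776 and 629 in the WT libraries, which is 2.25% of the WT mean. For mxa the values were 12.4, 14.3 and 23.2 in C246X and 366, 441 and 351 in WT, which is 4.30% of the WT mean. Both were high in every WT library and low in every C246X library. The third, mxc, had 5.16, 11.2 and 20.1 in C246X and 53.8, 78.4 and 94.3 in WT, and retained 16.1% of the WT mean. Fold changes were −5.56 for mxb (SE 0.41), −4.50 for mxa (SE 0.25) and −2.68 for mxc (SE 0.46).

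The other Mx genes were measured as well and are not among the members. All 4 of them fell, beside 11.4% lower over all tested genes. The gene mxe averaged 6.07 ± 5.59 in C246X and 222 ± 23.3 in WT (SD, n = 3 each; log2 fold change −5.35, limma adjusted p = 0.000731). For mxd the log2 fold change was −2.43 (limma adjusted p = 0.0039), for mxf −3.41 (0.00501) and for mxg −3.65 (0.0297). In WT, mxg ranged from 11.0 to 74.4, a wider spread than for the others. Close copies share sequence, and reads split between Mx genes make the value of any single copy uncertain. The sum over the 4 was 10.3 to 26.2 in C246X and 262.9 to 410.0 in WT.

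The gene rsad2 encodes viperin, a radical enzyme that in mammals turns CTP into a chain-terminating nucleotide, and cmpk2 encodes a nucleotide kinase of the mitochondria. In the RefSeq gene order of assembly GRCz12tu they are neighbours. For rsad2 the libraries had 171, 147 and 244 scaled reads in C246X, against 1049, 1195 and 687 in WT. This was the shallowest decrease among the 7, with 19.2% of the WT mean retained and a fold change of −2.37 (SE 0.24). For cmpk2 the libraries had 11.3, 13.2 and 8.06 in C246X, against 125, 226 and 137 in WT. It retained 6.69% of the WT mean, with a fold change of −3.76 (SE 0.31).

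These neighbours thus differed in depth. The log2 level of rsad2 exceeded that of cmpk2 by 3.37 to 4.76 in the C246X libraries and by 2.32 to 3.05 in the WT libraries, a difference of 1.39 between the genotypes with no overlap. The genes mxa and mxb are neighbours as well, and the log2 level of mxa minus that of mxb averaged 0.18 ± 0.84 in C246X and −0.88 ± 0.09 in WT (SD, n = 3 each), a difference of 1.06 with no overlap. At 6.11 to 23.2 scaled reads per C246X library, a few reads move that difference. The same limit holds for the difference between rsad2 and cmpk2, as cmpk2 had 8.06 to 13.2 scaled reads per C246X library.

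The gene ifit8 encodes a member of the IFIT family, whose tetratricopeptide-repeat proteins bind viral RNA in mammals. It had 6.19, 4.07 and 0 scaled reads in the C246X libraries, against 193, 438 and 237 in the WT libraries. The C246X mean was 1.18% of the WT mean, and the fold change of −6.36 (SE 0.70) had the widest interval of the members, −7.97 to −4.75. With a pseudocount of 0.1 in place of 1 it was −7.62, so its depth depends on how a value of 0 is handled. Of the 5 other IFIT genes, 4 fell, beside 11.4% lower over all tested genes. The gene ifit10 averaged 6.76 ± 4.72 in C246X and 130.3 ± 32.7 in WT (SD, n = 3 each; log2 fold change −4.22, limma adjusted p = 0.000566). The genes ifit16, ifit9 and ifit11 had log2 fold changes of −2.95, −2.75 and −0.96. The remaining ifit12 had 14.9 ± 7.16 in C246X and 25.1 ± 2.82 in WT and did not pass.

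Genes of the IFI44 family, which encode proteins with a GTP-binding fold, were lower in part. Of 11 measured, 3 fell, 1 rose and 7 did not pass, beside 11.4% lower and 11.1% higher over all tested genes. The gene ifi44f3 averaged 15.9 ± 8.48 in C246X and 133 ± 10.4 in WT (SD, n = 3 each; log2 fold change −3.13, limma adjusted p = 0.00126), and ifi44a1 averaged 22.4 ± 5.28 in C246X and 171 ± 47.2 in WT (log2 fold change −2.86). The gene ifi44b was listed at 0 in all C246X libraries, against 7.97, 5.02 and 6.36 in WT, and passed. In the other direction, ifi44a7 had 2.06, 3.06 and 4.03 in C246X and was listed at 0 in all WT libraries, and passed. Both rest on a handful of reads.

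The genes parp9 and samhd1 stood apart from the rest. The parp9 protein (ENSDARG00000006848) belongs to the ADP-ribosyltransferase family and in mammals works with a ubiquitin ligase in the interferon response. It had 382, 438 and 423 scaled reads in the C246X libraries, against 419.5, 414 and 378 in the WT libraries. The genotypes overlapped, the fold change was 0.04, and its 95% interval ran from −0.18 to 0.25. Leaving out single libraries gave −0.01 to 0.09. The samhd1 protein breaks down the nucleotides needed for viral DNA synthesis. It had 215, 197 and 204 in C246X and 160.3, 169.8 and 178 in WT, with no overlap. Its fold change was 0.28 (95% interval 0.01 to 0.54). That interval is not adjusted for the number of genes, and the difference was not tested, as for the other members.

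Within the ADP-ribosyltransferase family, 5 of 17 other genes fell and 3 rose, beside 11.4% lower and 11.1% higher over all tested genes. Over all 41 relatives of the effectors, the number that rose was 4, and it was 1 with a replicate block or without any single C246X library. The largest decreases were in PARP12, with 114 ± 17.2 in C246X and 655 ± 70.7 in WT (SD, n = 3 each; log2 fold change −2.52, limma adjusted p = 2.67e-05), and parp14rs1, with 53.5 ± 22.2 in C246X and 198 ± 42.0 in WT (−1.95, limma adjusted p = 0.0058). In the GRCz12tu gene order parp14rs1 lies next to parp9. The log2 level of parp9 exceeded that of its neighbour by 2.63 to 3.73 in C246X and by 0.62 to 1.31 in WT. The genes parp10 and PARP16 fell by 0.53 and 0.46 on the log2 scale. The DNA-repair gene PARP2 averaged 434 ± 6.52 in C246X and 282 ± 18.1 in WT (log2 fold change 0.62, limma adjusted p = 0.00244), and PARP1 and PARP6 rose by 0.20 and 0.37. The summed level of the 17 genes was 10035 to 10332 in C246X and 10141 to 10306 in WT.

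**Figure D2:**
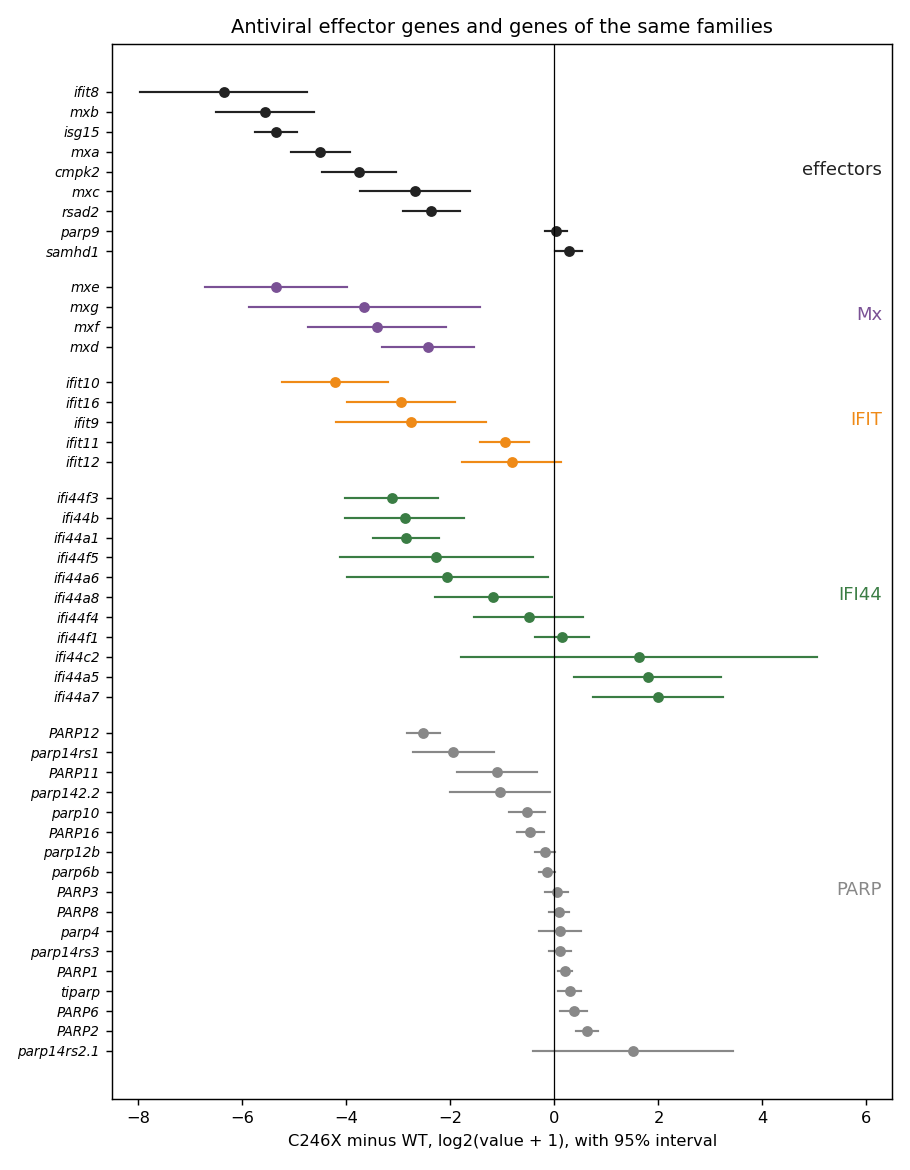
Fold change of each antiviral effector gene and of the other measured genes of the Mx, IFIT, IFI44 and PARP families, C246X less WT in log2(value + 1) units (x axis), with bars for the 95% interval of the fit to 3 libraries per genotype. The other Mx genes lie between −5.35 and −2.43, while the PARP genes lie between −2.52 and 1.51.

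Ordered by fold change, the 7 lower members ran from ifit8 through mxb, isg15, mxa, cmpk2 and mxc to rsad2. As the members were chosen with these depths known, the order is a description and was not tested. For each pair of neighbours in it, the log2 levels were also set against each other within each library. The log2 level of isg15 exceeded that of mxa by 1.65 to 1.92 in the C246X libraries and by 2.51 to 2.68 in the WT libraries, a difference of −0.86 between the genotypes with no overlap. At 12.4 to 23.2 scaled reads of mxa per C246X library, a few reads move that difference. For the other 5 pairs of neighbours the within-library differences of the genotypes overlapped. How often pairs of genes separate in this way over all tested genes was not measured.

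Spread between libraries of 1 genotype differed among the members. In WT the coefficient of variation was 7.23% for isg15, 10.5% for mxb and 12.5% for mxa, against 26.7% for rsad2, 33.9% for cmpk2 and 45.1% for ifit8. For parp9 it was 6.90% in C246X and 5.66% in WT, and for samhd1 it was 5.21% in WT. Within WT, replicate 2 was the highest for 6 of the 7 lower members, with mxc the exception. Within C246X, replicate 3 was the highest for 5 of the 7, and for the other 2, ifit8 and cmpk2, it was the lowest. No library was the highest of its genotype for all 7. Over the 21 pairs of these 7 genes, deviations from the genotype mean correlated positively in 11, with a median r of 0.06.

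**Figure D3:**
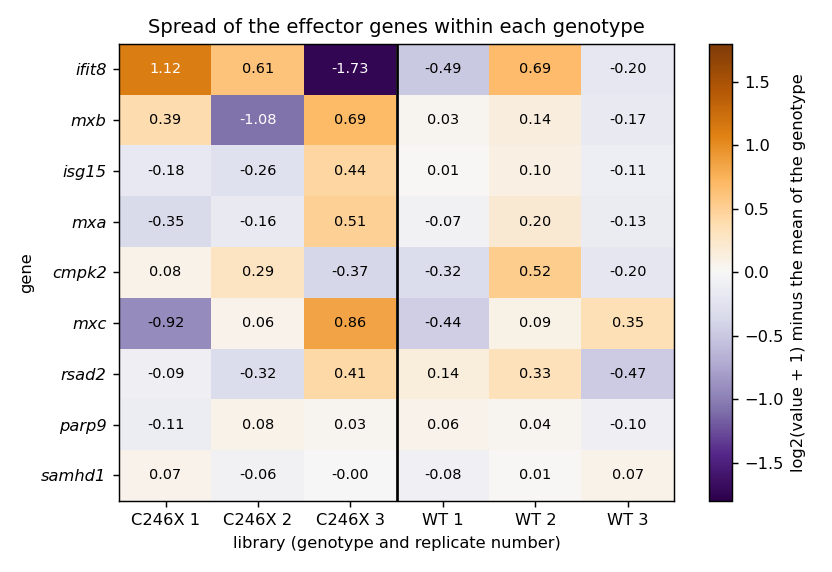
Deviation of each effector gene in each library from the mean of its genotype, on the log2(value + 1) scale (colour and printed value), with genes in rows and libraries in columns. C246X replicate 3 is above its genotype mean for isg15, mxa, mxb, mxc and rsad2 and 1.73 below it for ifit8, and among the deviations of parp9 and samhd1 the one farthest from 0 is −0.11, for parp9 in C246X replicate 1.

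Genes that sense virus or pass on the interferon signal were lower in part. Of 27 tested, 15 fell, 1 rose and 11 did not pass, beside 11.4% lower and 11.1% higher over all tested genes. The median log2 fold change of the 27 was −0.74, beside −0.01 over all tested genes. The list was written with earlier results of these libraries known. The gene stat2, whose protein carries the signal to the nucleus, averaged 928 ± 79.3 in C246X and 6888 ± 1240.3 in WT (SD, n = 3 each; log2 fold change −2.88, limma adjusted p = 6.74e-06). The transcription factor gene IRF7 averaged 41.5 ± 4.28 in C246X and 318 ± 37.9 in WT (−2.91), and the RNA sensor gene DHX58 averaged 49.5 ± 14.0 in C246X and 413 ± 68.0 in WT (−3.06).

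Upstream of these stand the ligands and their receptors. The interferon gene ifnphi1 was close to 0 in every library, with 0, 2.04 and 1.01 scaled reads in C246X and 2.99, 4.02 and 3.18 in WT, and did not pass. The receptor chain gene crfb1 rose, averaging 299 ± 12.4 in C246X and 116 ± 19.6 in WT (SD, n = 3 each; log2 fold change 1.37, limma adjusted p = 0.000645). Another receptor chain gene, crfb2, and the kinase gene JAK1 had fold changes of 0.13 and −0.04 and did not pass. The kinase gene TYK2 fell, averaging 851 ± 88.9 in C246X and 1251 ± 233 in WT (log2 fold change −0.54, limma adjusted p = 0.0283). The listed receptor genes crfb5, crfb6, crfb13, crfb17 and ifng1r and the ligand genes ifnphi2, ifnphi4 and ifng1 were not matched. Measured genes named in this paragraph other than crfb1 were chosen after their values were seen.

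Among 45 other interferon-induced genes, 31 fell, 0 rose and 14 did not pass (median −1.25), beside 11.4% lower and 11.1% higher over all tested genes. At an unadjusted p under 0.05, 0 of the 45 were higher in the same limma fit, and limma-voom also called 0 of them higher. The small membrane-protein gene ifi27.4 averaged 137 ± 25.2 in C246X and 2620 ± 148 in WT (SD, n = 3 each; log2 fold change −4.26, limma adjusted p = 1.32e-06), and ifi27.1 averaged 122 ± 27.8 in C246X and 2182 ± 323 in WT (−4.16). The helicase-family genes ZNFX1 and helz2a had log2 fold changes of −1.99 and −2.43. Those that did not pass included isg20, an exonuclease gene, with 392 ± 7.36 in C246X and 347 ± 22.0 in WT, and adar, an RNA-editing enzyme gene, with a fold change of −0.21. Both were named after their values were seen.

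Most markers of microglia and macrophages were lower as well. Of 34 microglia and macrophage markers 26 fell, 1 rose and 7 did not pass (median −1.21), beside 11.4% lower and 11.1% higher over all tested genes. The summed level of the 34 markers was 18123 to 21831 in C246X and 31206 to 34370 in WT. C246X brains thus held 59.6% of the WT level of this sum. Most of it came from the abundant genes cd74a, apoeb, cd74b and AIF1L, at 42.4%, 71.8%, 39.7% and 104.6% of their WT means. The marker sum therefore says little about the other markers of this list. The sum of all 9 measured effectors stood at 16.7% of the WT level, and that of the 7 picked out as lower at 6.14%. The lysosomal gene cd68 averaged 412 ± 39.2 in C246X and 1399 ± 58.4 in WT (SD, n = 3 each; log2 fold change −1.76, limma adjusted p = 1.46e-05), and grna, a granulin gene, had a fold change of −1.82. Of the macrophage gene MPEG1, 1 copy (ENSDARG00000043093) averaged 4.76 ± 2.36 in C246X and 102 ± 29.6 in WT, and the other (ENSDARG00000055290) 222 ± 32.6 in C246X and 544 ± 47.0 in WT. The phagocyte oxidase gene cybb rose by 0.90. No marker of the list was at 0 in any library. C246X replicate 3, the highest of its genotype for 5 of the 7 effectors, also had the highest marker sum of its genotype, and WT replicate 2, the highest of its genotype for 6, had the lowest. The part of these cells in the effectors' decrease was not tested.

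Lymphocyte and neutrophil markers were mixed, with 5 of 19 lower, 1 higher and 13 that did not pass (median −0.48). Their summed level was 3071 to 3233 in C246X and 3129 to 3502 in WT. Most of that sum was a single gene, GATA3, which averaged 2791 ± 94.1 in C246X and 2671 ± 151 in WT. The sum therefore says little about the other markers of this list. The T-cell kinase gene ZAP70 averaged 35.3 ± 9.27 in C246X and 91.8 ± 15.1 in WT (SD, n = 3 each; log2 fold change −1.38, limma adjusted p = 0.00855). The others that fell were CCR7, ighm, cd4-1 and lck, and RAG2 rose by 0.87. The defining B-cell gene cd79a had 0, 0 and 3.02 in C246X and 1.99, 5.02 and 2.12 in WT, and the T-cell gene cd8a had 0, 4.07 and 2.01 in C246X and 3.98, 8.04 and 16.9 in WT. Both overlapped between the genotypes and did not pass. Endothelial markers had 1 of 12 lower and erythrocyte markers 1 of 7 higher, beside 11.4% lower and 11.1% higher over all tested genes. The 4 astroglia entries matched 7 genes, of which 3 fell, both FABP7 copies and the less abundant GLUL copy. GFAP and the more abundant copies of SLC1A2 and GLUL did not pass. Of 4 oligodendrocyte markers 3 fell.

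**Figure D4:**
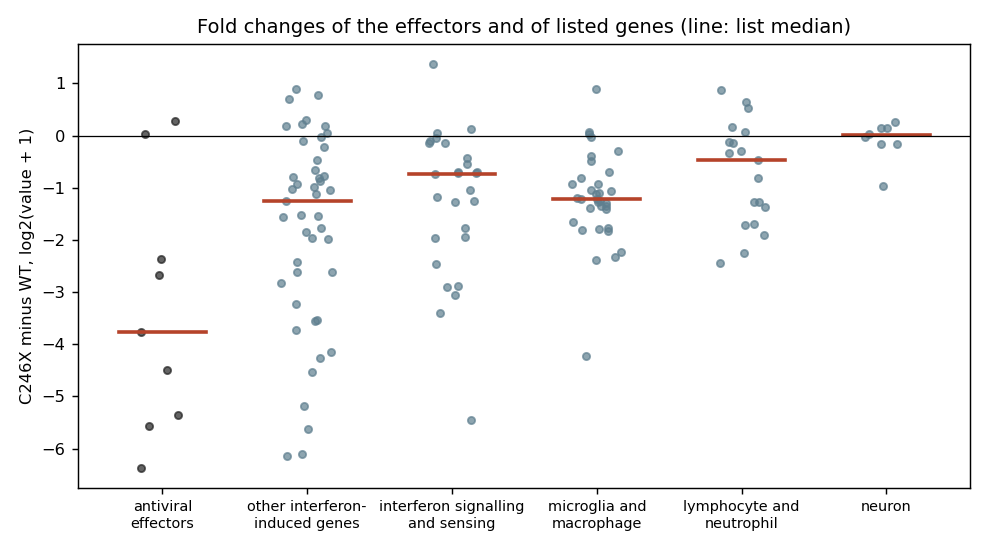
Fold change of each gene, C246X less WT in log2(value + 1) units (y axis), for the 9 antiviral effectors and 5 gene lists, with 1 point per gene, horizontal jitter only for legibility and a line at each median. The effectors reach −6.36, all microglia and macrophage markers but 1, an MPEG1 copy at −4.22, lie between −2.38 and 0.90, and neuron markers centre on 0.00.

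The profile of isg15 over the 6 libraries was compared with those of 19603 other genes with a mean of at least 10, as the root mean square difference of log2(value + 1) after centring each gene. Among the closest was igldcp at 0.23, with 48.5, 54.0 and 54.4 scaled reads in the C246X libraries and 2052, 2107 and 1659 in the WT libraries. Also among the closest were si:ch211-160m12.2, znf988, si:ch211-241n15.3, ftr80, AP1S3 and si:dkey-199m13.5, at 0.23 to 0.38, and their C246X values were at or within rounding of 0, or up to 2.01. The WT means of si:ch211-160m12.2, znf988, si:ch211-241n15.3 and ftr80 were 42.0 to 43.3. With C246X values so close to 0, the distances of these genes from isg15 depend on the pseudocount of 1. They are therefore not shown to be more like isg15 than mxb or mxa. For comparison, mxb and mxa stood at 0.43 and 0.44 and cmpk2 at 0.92.

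Genes on either side of the effectors in the GRCz12tu gene order were looked at as well. These include a neighbour of ifi44g, kng1, although ifi44g itself was not matched. Up to 3 protein-coding neighbours on each side were joined by symbol, which gave 26 tested genes that are not members. Of these, 4 fell, 4 rose and 18 did not pass, beside 11.4% lower and 11.1% higher over all tested genes. Those that fell were mxe beside mxc, parp14rs1 beside parp9, col9a3 beside samhd1 and gatc beside isg15. The gene gatc, for a subunit of a mitochondrial amidotransferase, averaged 113 ± 10.1 in C246X and 209.6 ± 13.4 in WT (SD, n = 3 each; log2 fold change −0.89, limma adjusted p = 0.00288). On the other side of isg15, pxmp2 had a fold change of −0.45 and did not pass.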

How the data were processed

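For each Ensembl gene the deposited matrix holds a signal per library. By its low values, the authors' signal appears to be estimated reads divided by 1 factor per library, since 95.0% to 95.2% of low values were whole multiples of a step of 0.996 to 1.06, within 0.03. Paired reads were 150 bp long, per the labels' protocols. The submitters' processing notes name STAR and the build GRCz11. Which counter, annotation and scaling were used is not given in the sources used here. Symbols were matched through a gene-name table (22274 genes). List entries without a symbol of their own were matched by their stem, and 1 entry could then match 2 genes, which were counted separately.

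Genes with a mean of at least 1 (23104) were fitted by genotype on the log2(value + 1) scale with limma 3.58.1 in R 4.3.3, with a mean-variance trend. P-values were adjusted by Benjamini-Hochberg over all of them. The fit was also run on simulated data, with changes smaller than those of the lower effectors and none in genes of low mean. That run therefore does not check changes as deep as those of the lower effectors. All fold changes are on the log2(value + 1) scale, which understates changes of low genes. The effectors and lists were chosen with earlier results of these data known. Genes named by rule are the effectors, up to 4 genes per list and direction with the smallest p, and the 8 profiles closest to isg15, and 1 gene that this rule names is not reported here. Others were named after their values were seen. Alternatives were 3 scalings, 2 filters, 2 pseudocounts, limma-voom, robust moderation, a replicate block, each library left out and, for the effectors, the ratio of group means without a pseudocount. Matching lists by own symbols only was added after the data were seen. Tables and figures used pandas 2.3.3 and matplotlib 3.10.9 in Python 3.11.15.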

Additional observations from a re-analysis of the deposited data

How the results depend on the processing

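All 7 lower effectors kept a negative fold change under all 17 alternatives, which is no check of their direction. With every C246X library below every WT library, leaving out a library or changing the pseudocount could not turn the sign. The filters, robust moderation and the replicate block left the fold change itself unchanged. Single-library omissions show only how far the depth moved. They gave −5.57 to −5.23 for isg15, −6.92 to −5.50 for ifit8 and −2.61 to −2.21 for rsad2. The fold change of parp9 changed sign without C246X replicate 2 or WT replicate 3, within −0.01 to 0.09. With single libraries left out, the genes lower in C246X numbered 1581 to 2353 and those higher 1394 to 2425, and the relatives of the effectors that rose numbered 1 to 3, in place of 4. That count was 2 by limma-voom, total-count or upper-quartile scaling. Of the other interferon-induced genes, 0 to 1 rose with single libraries left out. The other counts stayed within 1.5 times under the alternatives run. The replicate numbers were not taken as pairs, since nothing in the labels says that they pair the libraries. Same-numbered libraries of the genotypes deviated together weakly (r = 0.05 to 0.07), although each library correlated best with its own number. With a replicate block 1 relative rose and no other count given here moved by over 1.5 times. A search of promoters for motifs, planned as an alternative, was not run. A value near 0 in 1 genotype limits the depth that can be stated for genes such as ifit8, mxe, mxf, mxg, ifit9, ifi44b and ifi44a7.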

Other observations

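Chosen after their values were seen, 3 interferon-induced genes of peptide processing stood high in 1 C246X library. The transporter gene tap2a had 0, 33.6 and 0 scaled reads in C246X replicates 1, 2 and 3, against 210.1, 269 and 195 in WT. The immunoproteasome genes PSMB8 and PSMB9 had 0, 16.3 and 0 and 0, 31.6 and 2.01 in C246X, against 120.5, 178 and 94.3 and 144, 159 and 199 in WT. Of the 7 lower effectors, 1, cmpk2, was highest in that library within C246X. A single entry of the astroglia list, fabp7a, matched 2 copies of FABP7 by its stem. The copy ENSDARG00000034650 had 4.13, 1.02 and 1.01 in C246X and 578, 647 and 885 in WT, a log2 fold change of −7.98. The copy ENSDARG00000007697 had −0.56 (both lower, limma adjusted p = 1.66e-05 and 0.00497). Which copy the entry stands for was not settled by this match. The GTPase gene irge4 had 37.1, 84.5 and 47.3 in C246X and 429, 5.02 and 8.47 in WT, where replicate 1 stood apart. The family member ifi44c2 had 8.32, 13.2 and 14.5 in C246X and 70.0, 0 and 0 in WT, again with WT replicate 1 apart. Neither passed (limma adjusted p = 0.691 and 0.475).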
